A study of Mus musculus with 9 samples.

Results

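The comparison of catalytically dead with wild-type PRMT5 uses 6 of the 9 libraries in the series, 3 from cells given PRMT5 (E444Q) and 3 from cells given PRMT5 (WT). All 6 came from cultured mouse spermatogonial stem cells (SSCs) of Prmt5 flox/flox; Rosa26-CreERT2 mice, in which 1 µM 4-hydroxytamoxifen (4OHT) activates Cre and deletes the floxed Prmt5, and to which the study returned PRMT5 by lentivirus. The other 3 libraries are of 4OHT-treated cells without a construct, and they serve here only as a reference level. The sample labels abbreviate the constructs as MU and OE, and MU was read as PRMT5 (E444Q) and OE as PRMT5 (WT), so every direction below rests on that reading. Members are the genes that passed a filter on low counts, 22452 of the 53801 in the table. The sources used here do not say whether the 3 libraries of a group came from separate cultures, so p-values measure the spread between these libraries, which may be technical. The study grew SSCs on feeder cells, which are growth-arrested mouse embryonic fibroblasts, in at least some experiments, and the sources do not say whether feeder or other somatic cells were removed before RNA was extracted.

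PRMT5 is the main enzyme that places symmetric dimethyl marks on arginines, and it works in a complex with WDR77. Its substrates include histones and the Sm proteins that build the spliceosome, and its loss is known to disturb splicing and to activate p53 in many cell types. A glutamine in place of the catalytic glutamate removes the methyl transfer while leaving the protein in place, so a mutant beside a wild-type construct asks which effects need the enzyme's activity. Genes of the study's self-renewal and differentiation panels were left out by rule except as a count. Of the 16 panel genes, 0 differed between the constructs at an adjusted p under 0.05 in edgeR. Over all genes tested the share called was 3.17%, so 0 of 16 is near that share and is no result about the panels.

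Prmt5 itself (ENSMUSG00000023110, chr14:54507187-54517525 in GRCm38, minus strand) was measured first. Its level as TMM-scaled counts relative to library size (CPM) was 145, 147 and 146 with PRMT5 (E444Q), against 1072, 1071 and 1085 with PRMT5 (WT). Without a construct it was 31.9, 30.8 and 28.2. The 3 groups did not overlap, and the mutant libraries held far less Prmt5 mRNA than the wild-type libraries (log2 fold change -2.88, standard error 0.052, edgeR adjusted p = 1.09e-12). In these counts catalytic activity and the amount of construct mRNA therefore cannot be told apart. The counts measure no protein and do not separate the construct from the endogenous gene.

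**Figure D1:**
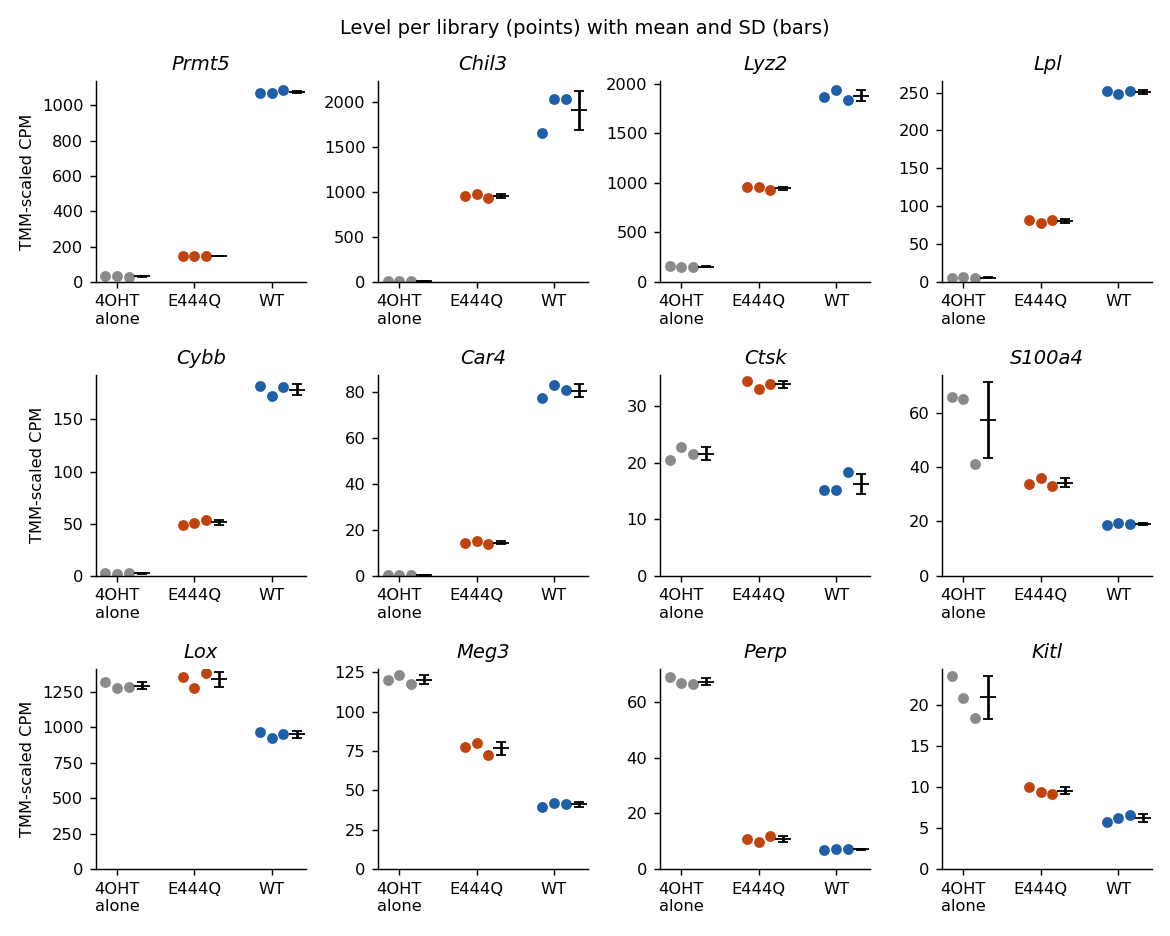
Level of 12 genes in each of the 9 libraries (points, TMM-scaled CPM, axes starting at 0) with the mean and SD of 3 libraries (bars) for 4OHT alone, PRMT5 (E444Q) and PRMT5 (WT). In each panel the E444Q points are apart from the WT points, with Prmt5, Chil3, Lyz2, Lpl, Cybb and Car4 lower and the other 6 genes higher with E444Q.

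Between the constructs, 712 genes were called at an adjusted p under 0.05 in edgeR, which is 3.17% of those tested, and 475 of them (2.12%) were higher and 237 (1.06%) lower with PRMT5 (E444Q). The lower genes moved further. Their median log2 fold change was -0.70, against 0.42 for the higher genes and 0.0080 over all genes tested. At least a 2-fold difference was seen for 67 of the lower and 34 of the higher genes, although 31 of the called genes had a mean under 1 CPM and 6 of these had no count in any wild-type library. The mutant libraries were also sequenced more deeply (192033300 to 365719548 counts) than the wild-type ones (79941857 to 154557863), and after all libraries were thinned to the shallowest 690 genes were called. Leaving out 1 library at a time gave 400 to 1099 calls, the most without replicate 3 of 4OHT alone, with 432, 400 and 411 calls without mutant replicate 1, 2 and 3 and 472 without wild-type replicate 3, and a fit of only the 6 libraries called 1565 genes, 822 higher and 743 lower. All 712 called genes had groups without overlap, as did 25.9% of all genes tested. Protein-coding genes made up 668 of the calls (4% of 16701 tested). Long noncoding RNAs made up 36 (0.955% of 3769 tested, under the 3.17% of all genes), of which 34 were higher with PRMT5 (E444Q).

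**Figure D2:**
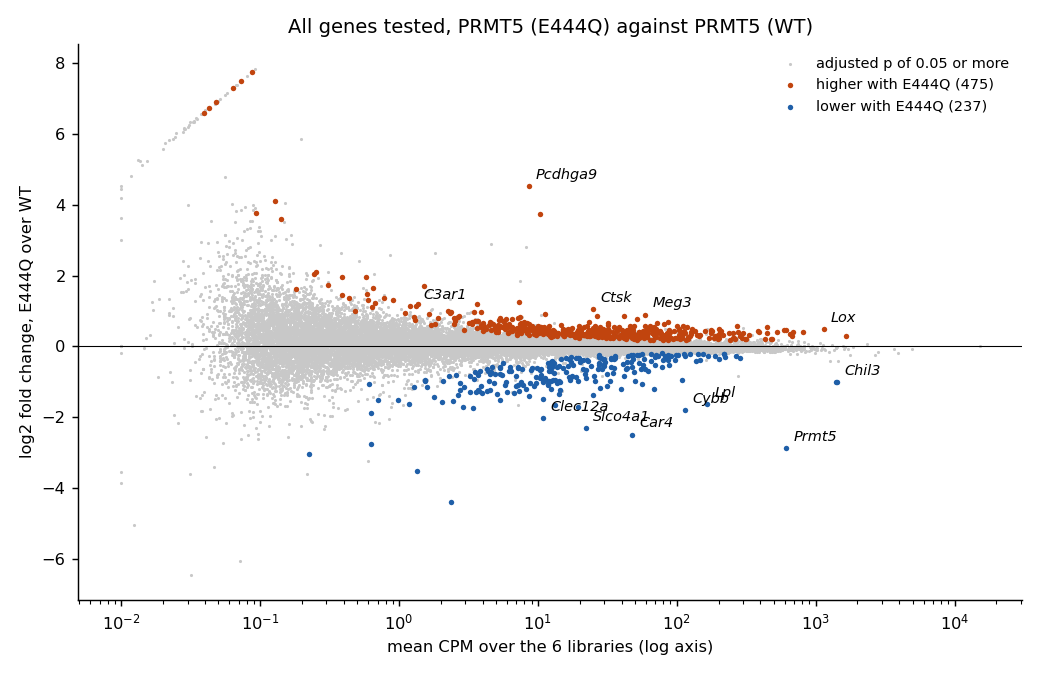
Log2 fold change of PRMT5 (E444Q) over PRMT5 (WT) against mean CPM over the 6 libraries (log axis; means under 0.01 drawn at 0.01) for the 22452 genes tested, with the 475 higher and 237 lower calls in colour. Among genes above 10 CPM the lower calls reach -2.88 (Prmt5), while the higher calls end at 1.06 (Ctsk) apart from the protocadherin gene Pcdhgb8.

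Of the 712 called genes 559 were on none of the 44 gene lists described here, among them all but 42 of the 237 lower genes. The list with the most lower genes was that of macrophages, the phagocytes of tissues. Of the 30 members of a list of macrophage markers, 19 fell and 1 rose (66.7% called, against 3.17% of all genes), with a median log2 fold change of -0.85. In bulk RNA, fewer cells of a type and less RNA per cell cannot be told apart. Summed over the list, the level was 1381, 1388 and 1352 CPM with PRMT5 (E444Q) and 2707, 2783 and 2659 CPM with PRMT5 (WT), a ratio of 1.98 in favour of the wild type. Without a construct the sum was 224 to 238 CPM, so the mutant libraries lay between the other groups. Lyz2, a lysozyme of phagocytes, made up most of the sum, with 953, 954 and 925 CPM against 1863, 1937 and 1834 CPM, and it fell by 0.99 on the log2 scale (standard error 0.045, edgeR adjusted p = 3.37e-08).

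Cybb, the membrane subunit of the phagocyte NADPH oxidase, was at 48.9, 50.8 and 53.5 CPM with PRMT5 (E444Q) and at 182, 173 and 181 CPM with PRMT5 (WT) (log2 fold change -1.81, standard error 0.078, edgeR adjusted p = 2.14e-08). Every mutant library was far below every wild-type library. Ncf1, a cytosolic subunit of the oxidase chosen after its values were seen, fell by 1.05 in log2 units (edgeR adjusted p = 1.58e-05). Cd14, a co-receptor for bacterial lipopolysaccharide, was at 6.03, 6.96 and 6.47 CPM against 20.3, 20.1 and 20.4 CPM (log2 fold change -1.64, edgeR adjusted p = 9.74e-06). Lyz1, a lysozyme nearly identical to Lyz2, had values of 0.218, 0.264 and 0.164 CPM against 3.53, 2.202 and 1.71 CPM, but reads of the pair may be split between them and its fold is uncertain.

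Csf1r, the receptor for the macrophage growth factor CSF1, was at 8.96, 8.34 and 7.09 CPM with PRMT5 (E444Q) against 18.9, 22.6 and 19.8 CPM with PRMT5 (WT) (log2 fold change -1.33, edgeR adjusted p = 2.84e-05). The C-type lectin Clec7a, which binds fungal glucan, was at 1.58, 1.62 and 1.56 CPM against 5.40, 5.80 and 4.59 CPM (log2 fold change -1.72, edgeR adjusted p = 5.24e-05). Groups did not overlap for either gene. Siglec1, a sialic acid receptor, fell by 1.70 and the inhibitory lectin Clec12a by 2.02 in log2 units (edgeR adjusted p = 9.74e-06 and 3.91e-05). Il17ra, a receptor for interleukin 17 that many cell types express, was at 40.3, 43.3 and 41.9 CPM against 93.0, 97.2 and 96.7 CPM (log2 fold change -1.19, edgeR adjusted p = 3.68e-08). Plek, a cytoskeletal protein of blood cells, fell by 1.10 in log2 units (edgeR adjusted p = 7.01e-07). The leukocyte phosphatase Ptprc and the transcription factor Spi1 (PU.1), both chosen after their values were seen, fell by 0.95 and 0.99 in log2 units (edgeR adjusted p = 7.06e-05 and 0.00903).

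Families were also counted by symbol, and since they were picked after the values had been seen their counts are a description only. Of 22 C-type lectins tested, 8 fell and 0 rose (36.4% called, against 3.17% of all genes). Of 9 Toll-like receptors, which sense microbial molecules, 3 fell and 0 rose (33.3%), and of 11 DOCK exchange factors, which activate Rac and Cdc42 in migrating cells, 3 fell and 0 rose (27.3%). Solute carriers gave 9 lower and 6 higher of 325, a share of 4.62% called.

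A second list held markers of alveolar-type macrophages, which live on lipid-rich surfactant in the lung. Of its 17 members tested (of 18), 10 fell and 1 rose (64.7% called, against 3.17% of all genes), with a median log2 fold change of -0.98. Chil3, a chitinase-like secreted protein, was at 953, 973 and 931 CPM with PRMT5 (E444Q) and at 1654, 2041 and 2033 CPM with PRMT5 (WT) (log2 fold change -1.004, standard error 0.08, edgeR adjusted p = 1.09e-05). The first wild-type library was the lowest of its group, yet above every mutant library. Car4, a membrane carbonic anhydrase, was at 14.3, 14.9 and 13.9 CPM against 77.6, 83.2 and 81.2 CPM, and had the largest fold of the list's members above 1 CPM (log2 fold change -2.49, standard error 0.083, edgeR adjusted p = 1.32e-09). Pparg, the nuclear receptor that directs lipid handling, was at 1.87, 2.04 and 2.41 CPM against 4.79, 4.26 and 6.25 CPM (log2 fold change -1.28, edgeR adjusted p = 0.00148).

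In a list of fatty acid and lipid storage genes 4 of 18 fell and 0 rose (22.2% called, against 3.17% of all genes), while its median was -0.071. Lpl, the lipase that frees fatty acids from lipoproteins, was at 81.8, 77.8 and 82.2 CPM with PRMT5 (E444Q) against 252, 248 and 252 CPM with PRMT5 (WT) (log2 fold change -1.64, standard error 0.052, edgeR adjusted p = 9.25e-10). The fatty acid transporter Cd36 was at 24.1, 21.2 and 21.8 CPM against 43.6, 46.6 and 42.2 CPM (log2 fold change -0.98, edgeR adjusted p = 1.09e-05). Both genes are also on the alveolar-type list, and the summed level of the macrophage list moved the same way. Plin2, which coats lipid droplets, fell by 0.40 and the acyl-CoA synthetase Acsl1 by 0.22 in log2 units (edgeR adjusted p = 0.000116 and 0.0396). Slco4a1, an organic anion transporter on no list, was at 6.97, 7.83 and 7.71 CPM against 35.4, 38.7 and 36.5 CPM (log2 fold change -2.30, edgeR adjusted p = 3.8e-09).

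Not every macrophage gene fell. Ctsk, a collagen-degrading cathepsin on the alveolar-type list that osteoclasts and fibroblasts also make, was at 34.5, 33.1 and 33.9 CPM with PRMT5 (E444Q) against 15.2, 15.1 and 18.3 CPM with PRMT5 (WT) (log2 fold change 1.06, standard error 0.08, edgeR adjusted p = 9.29e-06). Msr1, a scavenger receptor, was at 6.67, 6.53 and 7.26 CPM against 4.07, 3.78 and 3.75 CPM (log2 fold change 0.82, edgeR adjusted p = 0.00172). In both genes all mutant libraries were above all wild-type ones. The complement receptor C3ar1 rose by 1.15, the clotting factor subunit F13a1 by 1.14 and the lectin Siglecg by 0.93 in log2 units (edgeR adjusted p = 0.0204, 0.0296 and 0.00409), each at under 4 CPM. Mrc1, the mannose receptor, chosen after its values were seen, was at 27.6, 25.7 and 25.8 CPM against 31.5, 35.7 and 32.8 CPM and fell by only 0.34 in log2 units (edgeR adjusted p = 0.0215).

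**Figure D3:**
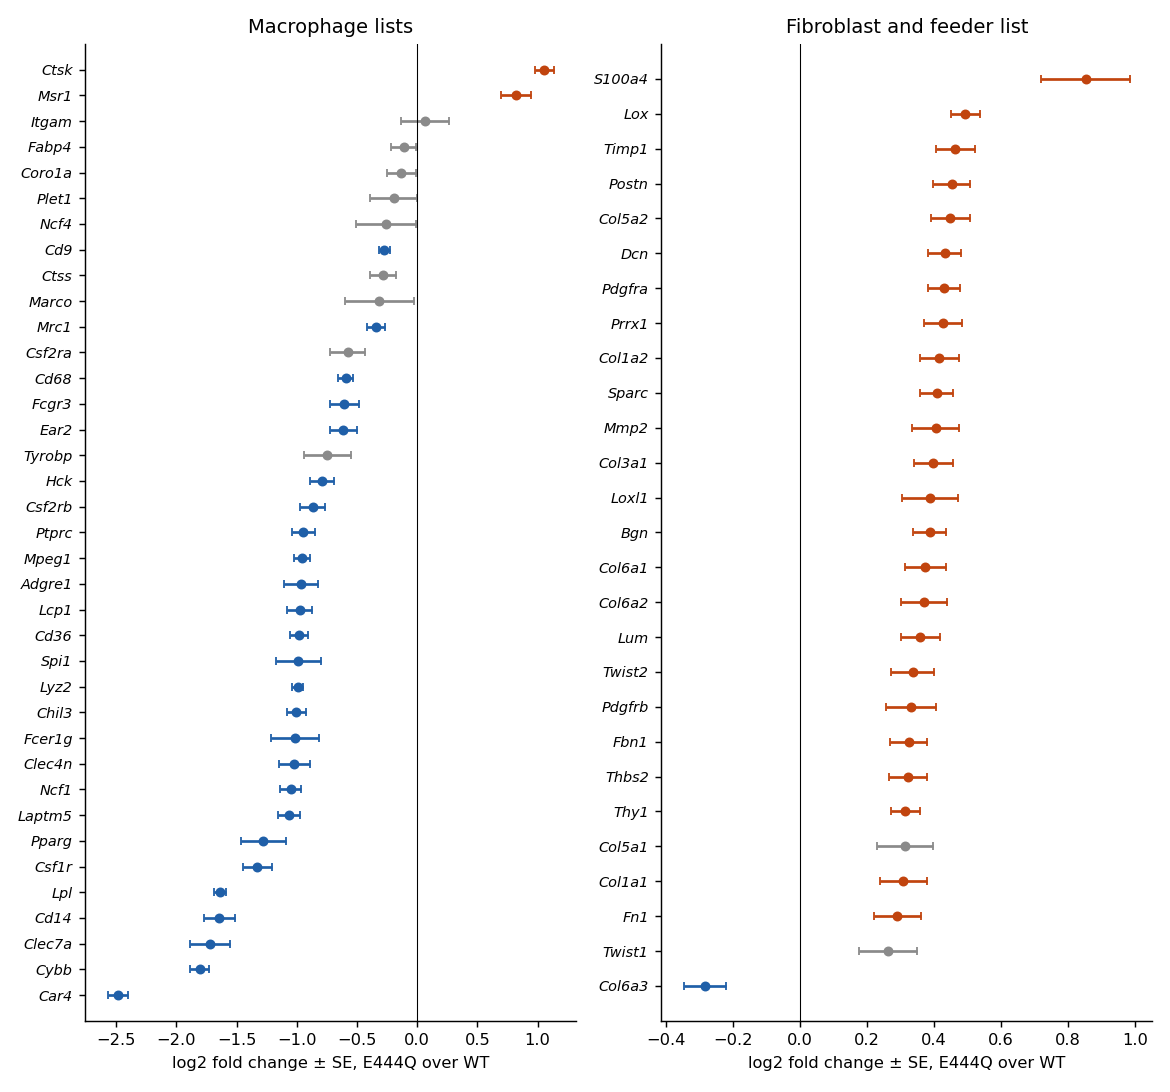
Log2 fold change of PRMT5 (E444Q) over PRMT5 (WT) with its standard error (bars) for the named members at 1 CPM or more of the 2 macrophage lists (left) and of the fibroblast and feeder list (right); red is higher, blue lower and grey not called. The called macrophage genes lie between -2.49 (Car4) and -0.27 (Cd9) with Ctsk and Msr1 on the other side, while most fibroblast genes sit near 0.37, with S100a4 at 0.85 and Col6a3 at -0.28.

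Promoters of the macrophage genes were read for the core GAGGAA of PU.1, the factor encoded by Spi1, on both strands of the 250 bases before the RefSeq start (GRCm38.p6). This core was found in 12 of the 19 macrophage list promoters at hand (63.2%), in 34.3% of 181 promoters of lower genes, in 23.3% of 331 promoters of higher genes and in 22.7% of all 14095 promoters of tested genes. It also stood in 7 of the 17 fibroblast and feeder list promoters at hand (41.2%), a list in which 24 of 30 genes rose. The promoters below are of 4 members that fell and hold it, of Cybb, which fell and lacks it, and of Ctsk, which rose and holds 2 matches. Capitals mark GAGGAA or its reverse complement, and sequences run 5′ to 3′ on the gene's strand.
Laptm5 (chr4:130913066-130913315, plus strand): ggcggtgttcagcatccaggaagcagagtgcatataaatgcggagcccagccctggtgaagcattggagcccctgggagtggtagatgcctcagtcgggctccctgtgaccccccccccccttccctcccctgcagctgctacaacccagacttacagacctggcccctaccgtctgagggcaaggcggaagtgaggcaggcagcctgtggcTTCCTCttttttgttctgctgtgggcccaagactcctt
Ptprc (chr1:138175306-138175555, minus strand): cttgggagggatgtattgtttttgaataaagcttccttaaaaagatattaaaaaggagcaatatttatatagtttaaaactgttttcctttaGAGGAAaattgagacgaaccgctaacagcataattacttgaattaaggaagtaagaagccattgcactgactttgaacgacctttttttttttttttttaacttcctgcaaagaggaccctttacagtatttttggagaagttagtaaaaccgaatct
Clec7a (chr6:129472780-129473029, minus strand): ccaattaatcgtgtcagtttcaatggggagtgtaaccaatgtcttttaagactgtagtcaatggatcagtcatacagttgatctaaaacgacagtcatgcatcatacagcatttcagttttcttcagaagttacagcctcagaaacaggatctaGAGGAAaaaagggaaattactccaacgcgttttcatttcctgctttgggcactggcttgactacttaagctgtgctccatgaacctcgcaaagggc
Mrc1 (chr2:14229164-14229413, plus strand): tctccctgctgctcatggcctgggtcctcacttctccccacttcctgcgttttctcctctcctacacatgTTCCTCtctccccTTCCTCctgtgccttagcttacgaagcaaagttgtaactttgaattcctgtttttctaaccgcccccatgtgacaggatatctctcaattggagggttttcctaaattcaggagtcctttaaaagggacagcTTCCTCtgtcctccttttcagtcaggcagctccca
Cybb (chrX:9469325-9469574, minus strand): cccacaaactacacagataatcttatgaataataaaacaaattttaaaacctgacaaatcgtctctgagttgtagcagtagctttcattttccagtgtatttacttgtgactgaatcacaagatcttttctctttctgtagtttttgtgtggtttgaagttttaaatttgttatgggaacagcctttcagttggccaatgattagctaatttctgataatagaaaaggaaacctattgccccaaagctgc
Ctsk (chr3:95498960-95499209, plus strand): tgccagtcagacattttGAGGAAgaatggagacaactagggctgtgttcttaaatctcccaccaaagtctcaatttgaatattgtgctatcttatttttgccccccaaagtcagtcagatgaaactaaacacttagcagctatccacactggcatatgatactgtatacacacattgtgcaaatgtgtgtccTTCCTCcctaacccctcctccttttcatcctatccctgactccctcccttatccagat
Laptm5, a lysosomal membrane protein of blood cells, was at 35.5, 36.8 and 36.4 CPM with PRMT5 (E444Q) against 77.7, 76.4 and 73.5 CPM with PRMT5 (WT). Mrc1 with 3 matches moved least of the 4, but the others hold 1 match each, so no order by number of matches can be read from them. Ctsk moved the other way, and the sequence after its RefSeq start was not found near the start of a GENCODE transcript, unlike in the rest. Among the other cores searched, TGANTCA of AP-1 stood in 11.6% of lower, 7.25% of higher and 5.07% of all promoters, CAGCTG of E-box factors in 12.2%, 13.3% and 12.4%, and GGAATG of TEAD factors in 9.39%, 17.2% and 11.1%. A GAGGAA followed by TG also holds the TEAD core.

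Of the 475 higher genes 111 were on a list, and the list with the most of them was that of fibroblast and feeder markers, with small folds. Of 30 fibroblast and feeder markers, 24 rose and 1 fell (83.3% called, against 3.17% of all genes), with a median log2 fold change of 0.37. Summed over the list, the level was 9203, 9209 and 9282 CPM with PRMT5 (E444Q) against 7115, 7098 and 7202 CPM with PRMT5 (WT), a ratio of 1.29. It was 16206 to 18846 CPM without a construct, so the mutant libraries again lay between the other groups. S100a4, a calcium-binding protein of motile fibroblasts and macrophages, was at 33.7, 36.1 and 33.0 CPM against 18.7, 19.3 and 19.01 CPM (log2 fold change 0.85, edgeR adjusted p = 0.00213), the largest change among the called members.

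Of 32 matrix glycoproteins and crosslinking enzymes, 22 rose and 0 fell (68.8% called, against 3.17% of all genes, median 0.36), and all 22 lay between 0.24 and 0.49. Lox, which crosslinks collagen and elastin, was at 1354, 1278 and 1378 CPM with PRMT5 (E444Q) against 969.7, 924 and 955 CPM with PRMT5 (WT) (log2 fold change 0.49, standard error 0.043, edgeR adjusted p = 2.3e-05). Thbs1, an adhesive glycoprotein that activates latent TGF-β, was at 697, 712 and 715 CPM against 515, 511 and 515 CPM (log2 fold change 0.46, edgeR adjusted p = 0.000648). Neither gene overlapped between the constructs. Pcolce, which aids the trimming of procollagen, rose by 0.48 and the periostin gene Postn by 0.45 in log2 units (edgeR adjusted p = 0.000111 and 0.000303).

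Of 31 collagens and laminins, 15 rose and 1 fell (51.6% called, against 3.17% of all genes, median 0.31). Col1a1 and Col1a2, the chains of type I collagen, rose by 0.31 and 0.42 in log2 units (edgeR adjusted p = 0.0278 and 0.000773). Col8a1, a short-chain collagen, was at 71.6, 69.6 and 73.3 CPM against 47.9, 47.3 and 47.4 CPM (log2 fold change 0.59, edgeR adjusted p = 1.11e-05). Col6a3 was the exception, at 103, 107 and 103 CPM against 128, 128 and 124 CPM (log2 fold change -0.28, edgeR adjusted p = 0.0257). Col6a1 and Col6a2, the other type VI collagen chains on the list, rose by 0.37 each (edgeR adjusted p = 0.00313 and 0.00721). Among 27 matrix proteases and their inhibitors, 9 rose and 0 fell (33.3% called, median 0.27). The aggrecanase Adamts5 was at 41.0, 37.4 and 40.2 CPM against 25.7, 23.8 and 25 CPM (log2 fold change 0.67, edgeR adjusted p = 8.06e-05). Both kinds rose together, since the protease Adamts1 rose by 0.62 and the inhibitor Timp1 by 0.46 in log2 units (edgeR adjusted p = 9.28e-05 and 0.000401).

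All but 1 of the 6 CCN family genes tested rose (a family picked after the values were seen), among them Ctgf, at 90.3, 86.8 and 86.4 CPM with PRMT5 (E444Q) against 55.1, 51.6 and 58.4 CPM with PRMT5 (WT) (log2 fold change 0.67, edgeR adjusted p = 9.83e-06). Of 29 growth factor ligands tested (of 31), 8 rose and 0 fell (27.6% called, against 3.17% of all genes, median 0.35), and all 8 were highest without a construct. Kitl, the ligand of the KIT receptor of differentiating spermatogonia, was at 10.1, 9.48 and 9.20 CPM against 5.75, 6.25 and 6.68 CPM (log2 fold change 0.62, edgeR adjusted p = 0.00331). Csf1, the ligand of Csf1r, was at 119, 120.1 and 120.3 CPM against 85.9, 86.8 and 85.7 CPM (log2 fold change 0.48, edgeR adjusted p = 0.00047), opposite in direction to its receptor. Fgf7, a growth factor for epithelia, and Inhba, a subunit of activin A, each rose by 0.40 in log2 units (edgeR adjusted p = 0.00648 and 0.00655). Of 10 smooth muscle and peritubular markers 3 rose and 0 fell, among them Tagln by 0.38 in log2 units (edgeR adjusted p = 0.000945). The fibroblast sum moved with all of these groups, and its part in them was not tested.

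**Figure D4:**
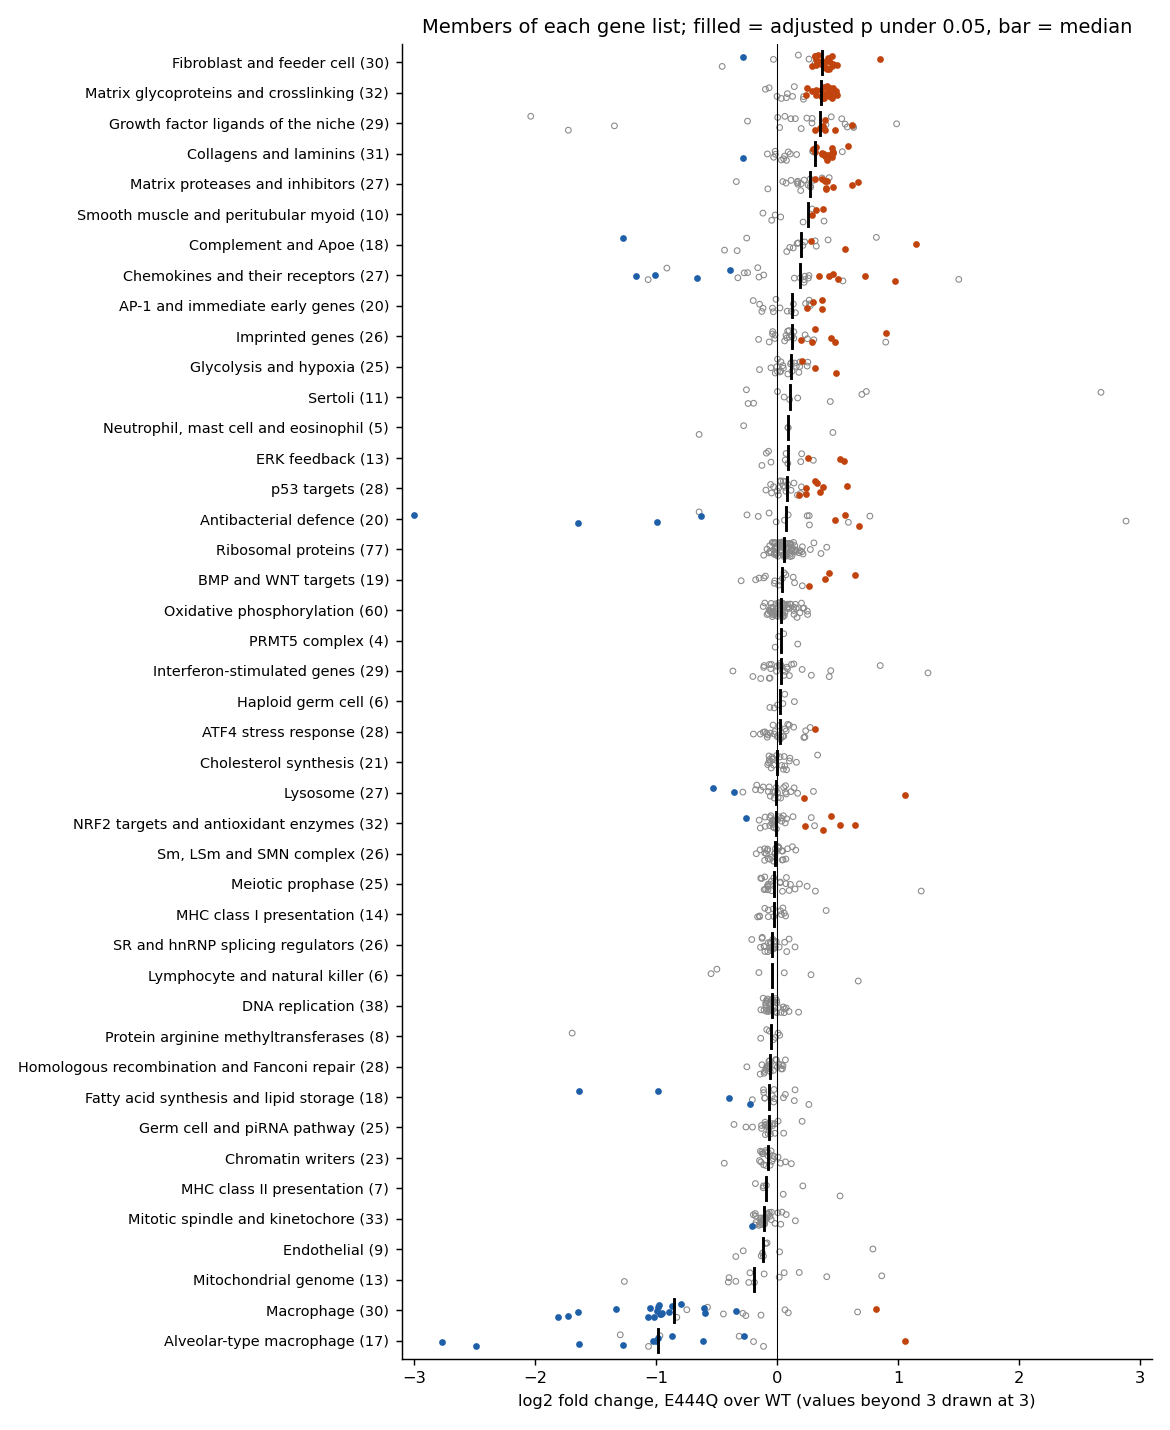
Log2 fold change of PRMT5 (E444Q) over PRMT5 (WT) for every tested member of 43 gene lists with at least 4 members tested (number in brackets), with called members filled (red higher, blue lower) and the list median as a bar. Medians run from 0.37 for fibroblast and feeder genes to -0.98 for alveolar-type macrophage genes, and lists with medians near 0 range from no calls to 7 of 20 for antibacterial genes.

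Chemokines split in both directions. Of 27 chemokines and receptors tested (of 33), 6 rose and 4 fell (37.0% called, against 3.17% of all genes, median 0.19). Ccl9, a macrophage-derived chemokine, was at 17.7, 17.1 and 16.6 CPM with PRMT5 (E444Q) against 39.1, 39.6 and 36.7 CPM with PRMT5 (WT) (log2 fold change -1.17, edgeR adjusted p = 1.09e-05), and Ccl3 fell by 1.01 in log2 units (edgeR adjusted p = 0.00033). Ccl2, which draws monocytes and is made by fibroblasts as well, was at 124, 123 and 117 CPM against 83.7, 88.7 and 83.8 CPM (log2 fold change 0.50, edgeR adjusted p = 0.000798). The neutrophil attractant Cxcl3 rose by 0.97 and the scavenging receptor Ackr3 by 0.73 in log2 units (edgeR adjusted p = 0.00681 and 0.00958). All 4 lower members were lowest without a construct, whereas 5 of the 6 higher members were highest there.

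Complement and antibacterial genes also had calls in both directions, but in each list only 1 of the 3 higher members was highest without a construct. Of 18 complement genes tested 3 rose and 1 fell (22.2% called, against 3.17% of all genes, median 0.19). C5ar1, the receptor for the C5a fragment, was lower (log2 fold change -1.27, edgeR adjusted p = 0.00168) and the protease C1s1 higher by 0.56 in log2 units (edgeR adjusted p = 0.000385). Of 20 antibacterial genes tested (of 27), 3 rose and 4 fell (35.0% called, median 0.076). Of these 20 genes, 7 had a mean under 1 CPM, and without them the median was -0.16. Lcn2, which withholds iron from bacteria, was at 123, 119 and 116 CPM with PRMT5 (E444Q) against 77.2, 82.9 and 81.0 CPM with PRMT5 (WT) (log2 fold change 0.56, edgeR adjusted p = 0.00011), while the receptor Tlr2 fell by 0.63 in log2 units (edgeR adjusted p = 0.000475). None of 29 interferon-stimulated genes, 14 class I and 7 class II presentation genes was called in edgeR, with medians of 0.029, -0.030 and -0.089.

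Of 28 targets of p53, 8 rose and 0 fell (28.6% called, against 3.17% of all genes), and the list median was 0.079. The fibroblast list, with 24 of 30 higher and a summed ratio of 1.29, moved the same way and was also highest without a construct, and its part in the p53 targets was not tested. Cdkn1a, the inhibitor that halts the cell cycle, was at 151, 155 and 156 CPM with PRMT5 (E444Q) against 127, 126 and 119 CPM with PRMT5 (WT) (log2 fold change 0.31, standard error 0.048, edgeR adjusted p = 0.00181). Perp, a membrane protein of apoptosis and cell adhesion, was at 10.7, 9.94 and 11.8 CPM against 7.09, 7.36 and 7.30 CPM (log2 fold change 0.58, edgeR adjusted p = 0.000341). The death receptor Fas rose by 0.36 in log2 units (edgeR adjusted p = 0.0239). All 8 were highest without a construct, as with Cdkn1a at 417 to 453 CPM. Mdm2, the ligase that degrades p53, was not called, at 273, 261 and 271 CPM against 258, 246 and 261 CPM (log2 fold change 0.07, edgeR adjusted p = 0.611).

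Imprinted genes, expressed from one parental allele, had 6 higher and 0 lower of 26 (23.1% called, against 3.17% of all genes, median 0.12). Meg3, a maternally expressed noncoding RNA, was at 77.6, 80.1 and 72.4 CPM with PRMT5 (E444Q) against 39.6, 42.2 and 41.7 CPM with PRMT5 (WT) (log2 fold change 0.90, standard error 0.052, edgeR adjusted p = 5.41e-07). Its neighbour Rian from the same cluster on chromosome 12 was at 83.0, 76.2 and 76.9 CPM against 54.5, 54.8 and 59.7 CPM (log2 fold change 0.48, edgeR adjusted p = 0.00019). The constructs overlapped in neither gene. Xist, the noncoding RNA that coats the inactive X chromosome, was chosen after its values were seen and was at 59.6, 69.9 and 65.4 CPM against 42.0, 34.3 and 38.1 CPM (log2 fold change 0.77, edgeR adjusted p = 0.000147). Without a construct it was at 157, 155 and 131 CPM. The fibroblast and feeder sum, also highest without a construct, moved the same way between the constructs as Meg3, Rian and Xist. Its part in these genes was not tested.

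Small groups of signalling genes rose too. Of 19 BMP and WNT targets tested (of 20), 4 rose and 0 fell (21.1% called, against 3.17% of all genes, median 0.044). Of these 4, 3 encode ID proteins, which block differentiation factors of the helix-loop-helix kind. Id2 was at 10.6, 9.66 and 11.1 CPM with PRMT5 (E444Q) against 6.57, 6.78 and 6.72 CPM with PRMT5 (WT) (log2 fold change 0.64, edgeR adjusted p = 0.00047), and Id3 and Id1 rose by 0.43 and 0.40 in log2 units (edgeR adjusted p = 0.000997 and 0.00129). Of 13 ERK feedback genes 3 rose (23.1% called, median 0.088), led by Spred3 at 0.55 and Etv1 at 0.52 in log2 units (edgeR adjusted p = 0.0292 and 0.0164). Of 20 AP-1 and immediate early genes 4 rose (20.0% called, median 0.13), with Junb at 0.37 (edgeR adjusted p = 0.00854). All of these called genes were highest without a construct. The fibroblast and feeder sum was highest there too, and its part in these genes was not tested.

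Among antioxidant enzymes, 5 of 32 tested (of 33) rose and 1 fell (18.8% called, against 3.17% of all genes, median -0.0095). The extracellular enzyme Sod3 was at 17.7, 17.4 and 17.8 CPM with PRMT5 (E444Q) against 11.8, 12.5 and 14.5 CPM with PRMT5 (WT) (log2 fold change 0.44, edgeR adjusted p = 0.00377), and Gpx8, a peroxidase of the endoplasmic reticulum where collagen folds, rose by 0.52 in log2 units (edgeR adjusted p = 0.00175). Of 25 glycolysis and hypoxia genes 3 rose (median 0.11), with the peptide hormone gene Adm at 0.49 (edgeR adjusted p = 0.000385). The ATF4 stress list had 1 call in 28 (3.57%, near the 3.17% of all genes), Atf5 at 0.31 in log2 units (edgeR adjusted p = 0.0261). The lysosome list had 2 in each direction among 27 (14.8% called). The 60 oxidative phosphorylation subunits, 77 ribosomal proteins, 13 mitochondrially encoded genes and 21 cholesterol synthesis genes held 0 calls.

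The lists of PRMT5 partners, other arginine methyltransferases and splicing genes held no calls either. At the 3.17% called over all genes, lists of this size would hold few. Of the PRMT5 partners Wdr77, Clns1a, Riok1 and Coprs, 0 of 4 were called, with log2 fold changes from -0.016 to 0.17. Wdr77 was at 248, 253 and 255 CPM with PRMT5 (E444Q) against 246, 242 and 239 CPM with PRMT5 (WT), levels that did not overlap although edgeR did not call them (log2 fold change 0.05, edgeR adjusted p = 0.704). Among the 8 other arginine methyltransferases, 26 Sm, LSm and SMN complex genes and 26 SR and hnRNP splicing regulators, 0 were called, with medians of -0.048, -0.018 and -0.044. These are gene-level counts, and splicing itself was not measured here.

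Of 33 spindle and kinetochore genes tested (of 34), 28 had a negative log2 fold change (median -0.11, against 0.0080 over all genes tested). Of the 33, 1 was called, which is 3.03% against 3.17% of all genes. That gene was Bub1b, a kinase of the spindle checkpoint, at 201, 201 and 202 CPM with PRMT5 (E444Q) against 228, 237 and 234 CPM with PRMT5 (WT) (log2 fold change -0.21, edgeR adjusted p = 0.0247). DNA replication (38 genes), recombination and Fanconi repair (28), meiotic prophase (25) and chromatin writers (23) had 0 calls and medians of -0.046, -0.061, -0.028 and -0.075. The 25 germ cell and piRNA genes had 0 calls and a median of -0.071, with 22 negative log2 fold changes. Their sum was 5467 to 5562 CPM against 5744 to 5828 CPM, so germ cell markers were abundant in all 6 libraries. Dazl, an RNA-binding protein of germ cells, was at 692, 659.9 and 708 CPM against 774, 772 and 825 CPM (log2 fold change -0.20, edgeR adjusted p = 0.0713).

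**Figure D5:**
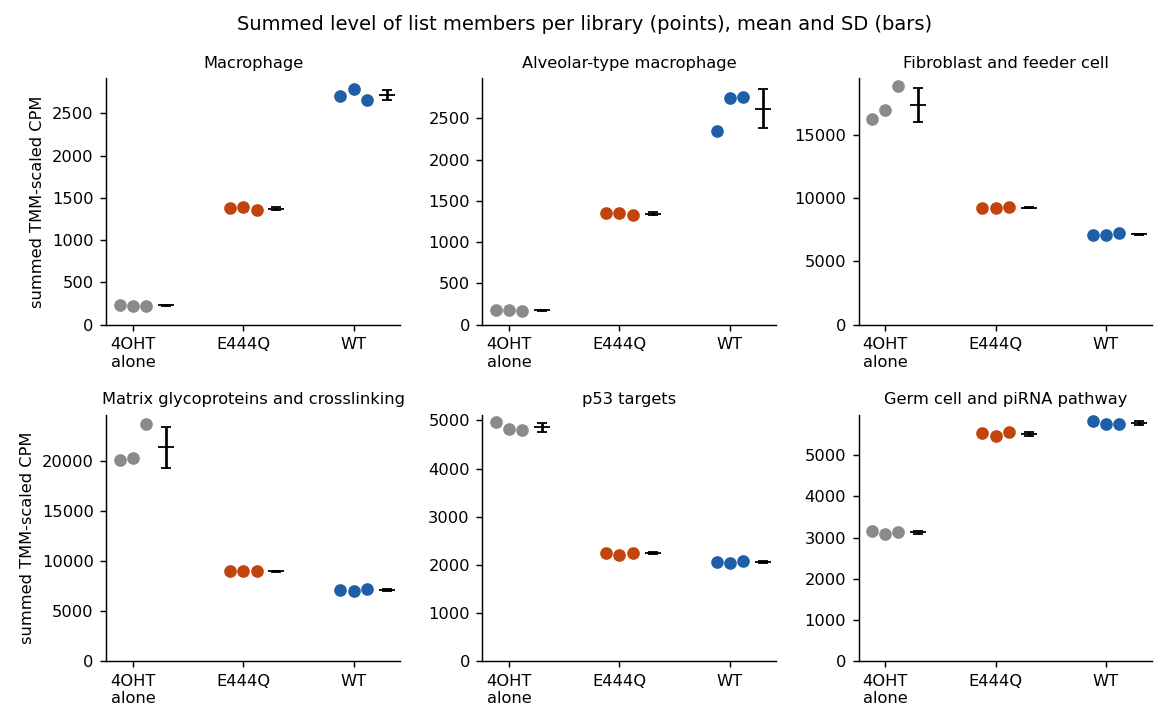
Summed TMM-scaled CPM of the tested members of 6 gene lists in each library (points, axes starting at 0), with mean and SD of 3 libraries (bars). E444Q lies between 4OHT alone and WT in all 6 panels, close to WT for p53 targets and germ cell genes and midway for the macrophage lists.

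Markers of other cells were summed in the same way. Lymphocyte and natural killer genes summed to 3.82 to 4.98 CPM in the 6 libraries over 6 members tested (of 16), and neutrophil, mast cell and eosinophil genes to 6.47 to 8.45 CPM over 5 (of 15). Sertoli genes summed to 21.6 to 26.5 CPM, Leydig genes to 6.15 to 6.90 CPM, endothelial genes to 41.6 to 49.1 CPM and haploid germ cell genes to 9.14 to 10.5 CPM. None of these 6 lists held a call, and at the 3.17% called over all genes such small lists would hold few. The smooth muscle and peritubular list, with 3 of 10 called, summed to 154 to 158 CPM with PRMT5 (E444Q) and to 132 to 139 CPM with PRMT5 (WT).

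The comparisons of each construct with 4OHT alone share the same 3 control libraries, so their values are only set side by side. For the macrophage list the median log2 fold change over 4OHT alone was 2.08 with PRMT5 (E444Q) and 2.93 with PRMT5 (WT). The fibroblast list had medians of -1.06 and -1.32. Prmt5 mRNA had log2 fold changes over 4OHT alone of 2.27 and 5.15.

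Some of the largest folds belong to genes whose counts are uncertain. Pcdhga9 was at 17.5, 13.8 and 18.2 CPM with PRMT5 (E444Q) against 0.332, 0.556 and 1.07 CPM with PRMT5 (WT) (log2 fold change 4.54, edgeR adjusted p = 4.93e-07), and Pcdhgb8 rose by 3.73 in log2 units (edgeR adjusted p = 7.06e-05). Gene models of the gamma protocadherin cluster, which encodes neuronal adhesion proteins, share their last exons, so reads can be assigned to either of many genes. Summed over the 22 Pcdhg genes tested, the level was 184 ± 0.38 CPM against 149 ± 0.45 CPM (SD, n = 3 each), a ratio of 1.23, while Pcdhgc3 fell by 0.40 in log2 units (edgeR adjusted p = 0.0289). BC037039, a transcript inside the cluster, Ugt1a6a, which shares exons with other Ugt1a genes, Adat3, listed under 2 identifiers, and Gm19221, a pseudogene inside Sav1, were also among the 15 largest increases. AL732309.1, which overlaps Ndor1, had the largest decrease (log2 fold change -4.38), with wild-type values of 9.07, 0.395 and 4.01 CPM that spread widely. Of the other genes that the rule on size selected, the matrix genes Tnxb and Col28a1 rose by 1.21 and 0.98 in log2 units (edgeR adjusted p = 0.0187 and 0.0141) and the ribonuclease gene Rnase6 fell by 1.56 (edgeR adjusted p = 0.0142).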

How the data were processed

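The authors deposited 1 table of whole-number gene counts for 9 libraries, mapped to GRCm38. The submitters' processing notes name Trimmomatic 0.39, HISAT2 2.2.1 and StringTie 2.2.1. Multiples of 4 were in excess among the counts, as if 1 read pair were about 4 counts, but the main fit used the counts as deposited. Division of the counts by 4 was run as an alternative and gave 875 calls (568 higher, 307 lower). Counts were filtered (filterByExpr, minimum 10, total 15), scaled by TMM and fitted for all 9 libraries in 1 edgeR 4.0.16 quasi-likelihood model (R 4.3.3, limma 3.58.1), with Benjamini-Hochberg adjustment over 22452 genes and a threshold of 0.05. Fold changes are PRMT5 (E444Q) over PRMT5 (WT). Alternatives were DESeq2 1.42.0, limma voom, other scalings, filters and fits, and leaving out each library. The fit was tested on simulated data. Gene positions came from GENCODE vM21 (22408 identifiers matched) and promoters from RefSeq (GRCm38.p6). Named genes were Prmt5, the 15 largest called changes in each direction at 1 CPM or more without overlap, the 10 smallest adjusted p-values, and in each list up to 5 called members per direction and the 2 most abundant. Some named genes and all families lie outside this rule and were chosen after their values were seen. Members and lists were chosen with earlier results of these data known. Python 3.11.15, pandas 2.3.3, numpy 2.4.6 and matplotlib 3.10.9 made tables and figures. The values of 1 macrophage list member are not reported here, although it is in the list counts and sums.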

Additional observations from a re-analysis of the deposited data

How the results depend on the processing

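Of 80 called genes given with a fold, none changed direction under any setting. This says little, since all called genes had groups without overlap and every setting reused the same counts. The count of 712 calls (475 higher, 237 lower) became 1565 (822 and 743) in a fit of only the 6 libraries and 1140 (713 and 427) with the DESeq2 Wald test, and limma voom gave 359 lower genes. Against a 1.5-fold change glmTreat called 34 genes (4 higher, 30 lower), with 8 macrophage, 4 alveolar-type, 0 fibroblast and 0 matrix glycoprotein members left. The fibroblast and matrix calls therefore rest on changes that were not shown to exceed 1.5-fold. Of the 22452 genes tested, 440 had an unadjusted p under 0.05 in that test, which does not show that further genes exceeded 1.5-fold. Leaving out 1 library at a time gave 400 to 1099 calls (256 to 686 higher, 144 to 413 lower). The extremes came without mutant replicate 2 and without replicate 3 of 4OHT alone, and 12 to 18 of the 80 genes lost their call when a mutant or wild-type library was left out. A replicate block gave 674 calls, of which 626 were shared, and in the 6-library fit 1378 (740 and 638). Same-numbered libraries of the constructs correlated at -0.042, -0.035 and 0.036 after group means were removed. The labels do not say whether such libraries were paired, and with so few libraries these values do not settle it. Without a filter on low counts 752 genes were called (561 higher, 191 lower) and the median of all genes moved to 0.062. The counts of the 4 lists recounted under each setting (macrophage, alveolar-type, fibroblast and matrix glycoproteins) stayed within 1.5 times of their values except with glmTreat. Genes under 1 CPM rest on few reads, and small differences in lists without calls may not have been detectable at this depth.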
